A study of Mus musculus with 8 samples.

Results

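The genes described here are those of adipocyte-lineage translating RNA in mouse skin that stood highest 3 days after wounding, above both uninjured skin and day 7 wounds. A gene was taken when it was annotated as protein-coding, reached at least 5 CPM in both day 3 libraries, and when the lower day 3 CPM was at least 2 times the highest CPM among the 6 uninjured and day 7 libraries. CPM is the raw count divided by the library's total count, times 1e6. The rule was met by 7 of 21929 protein-coding genes: Lcn2, Saa1, Aqp2, Mtss1l, Papolb, Fam78b and Ttc16. All 7 passed the later filter on low counts, Ttc16 only through its day 3 libraries. The genes were thus chosen by their CPM in the day 3 libraries against the other 6, so every day 3 difference of these genes is given as a description, and only day 7 against uninjured, which the rule does not order, was tested.

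RNA was sequenced from 8 libraries in 3 groups, which the sample titles name as uninjured skin (n = 3), day 3 (n = 2) and day 7 (n = 3) after wounding. All mice carried AdipoqCreER with R26-NuTRAP and received tamoxifen. Uninjured mice had tamoxifen alone and the day 3 and day 7 mice had tamoxifen and a skin wound. The labels' protocols put wounding at 7 to 9 weeks of age, in the resting phase of the hair cycle, with 4 full-thickness wounds made with a 5 mm biopsy punch. AdipoqCreER is a tamoxifen-activated recombinase driven from the adiponectin gene, which is active in adipocytes. NuTRAP is a reporter that, once recombined, puts GFP on ribosomes, so that RNA bound to them can be recovered with an antibody against GFP. The tag stays in a recombined cell and its progeny whatever they become, and unbound RNA from other cells can be carried along in such a pulldown. The labels do not say whether the libraries of a group came from separate mice, so p-values measure only the spread between these libraries, which may be technical.

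The early wound is an inflamed tissue in which injured and infiltrating cells release interleukins, and nearby cells answer with secreted proteins of innate defence. In the acute phase response, best known from the liver, C/EBP, STAT and NF-kB transcription factors switch on genes for serum amyloid A, metal-binding and iron-binding proteins. Adipose tissue is also a known source of several of these proteins, among them lipocalin 2 and serum amyloid A3.

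The libraries held 5308959 to 17751689 gene counts, and day 3 replicate 1 was the shallowest. Adiponectin itself (Adipoq) stood between 2355 and 4971 CPM in all 8 libraries, and the summed level of 15 adipocyte markers between 87988 and 141860 CPM. In bulk RNA, fewer cells of a type and less RNA per cell cannot be told apart. Column names in the count table begin with a number that is shared within a group and differs between groups, and whatever it stands for cannot be told apart from the group. Of the 35 gene lists used here, the 22 luminal epithelial markers had the largest ratio of summed CPM between the day 3 replicates. Their sum was 1853 CPM in replicate 1 and 75.4 CPM in replicate 2. It was 63.4 to 92.1 CPM in uninjured skin and 799.6 to 2245 CPM at day 7. For example, Krt8, a keratin of simple epithelium, was at 301 CPM in day 3 replicate 1 and 0.63 CPM in replicate 2. Of these 22 markers, 18 were higher in replicate 1, and Elf5, Csn1s1, Csn2 and Wap were at 0 in both day 3 libraries.

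Lcn2 and Saa1 are the 2 of the 7 genes that belong to the list of 26 acute phase and metal-binding genes. Their promoters are shown because they hold the same transcription factor motif, and that of Saa2 because it is the near-copy of Saa1 beside it. Each line gives the 250 bases before the RefSeq start site, 5′ to 3′ on the strand of the gene, from GRCm38.p6. The positions are chr2:32387740-32387989 on the minus strand for Lcn2, chr7:46742981-46743230 on the minus strand for Saa1 and chr7:46751583-46751832 on the plus strand for Saa2. Capitals mark the match to TTGCNNAA, the C/EBP motif that was searched.
Lcn2: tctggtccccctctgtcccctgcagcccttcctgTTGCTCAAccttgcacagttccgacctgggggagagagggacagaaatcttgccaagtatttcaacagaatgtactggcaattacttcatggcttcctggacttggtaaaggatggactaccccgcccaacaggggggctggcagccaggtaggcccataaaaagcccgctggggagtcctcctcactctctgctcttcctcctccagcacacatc
Saa1: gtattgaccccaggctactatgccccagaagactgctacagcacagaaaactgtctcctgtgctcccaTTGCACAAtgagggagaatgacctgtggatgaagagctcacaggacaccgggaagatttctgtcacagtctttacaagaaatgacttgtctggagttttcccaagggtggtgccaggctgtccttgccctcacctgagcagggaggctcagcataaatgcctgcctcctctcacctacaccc
Saa2: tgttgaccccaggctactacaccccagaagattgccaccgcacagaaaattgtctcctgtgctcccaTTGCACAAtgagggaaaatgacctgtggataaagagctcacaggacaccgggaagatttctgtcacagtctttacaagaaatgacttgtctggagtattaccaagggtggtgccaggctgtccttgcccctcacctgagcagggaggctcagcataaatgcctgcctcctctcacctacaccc
The match begins at base -216 from the start site in Lcn2, -182 in Saa1 and -183 in Saa2, and the same 8 letters stand in both Saa genes. Over windows that also include 50 bases after the start, Saa1 and Saa2 were identical in 287 of 301 aligned columns (95.3%).

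RefSeq windows of that length were found for 6 of the 7 genes, 8 windows in all, since Mtss1l (under its RefSeq name Mtss2) and Ttc16 have 2 starts each. Fam78b had no entry. Searched on both strands, TTGCNNAA was found in 2 of the 8 windows, and in 10.8% of 32851 windows of all genes. The AP-1 motif TGANTCA, an NF-kB motif (GGGA, any 2 bases, TTCC) and TATAAA were found in 0 of the 8, against 7.81%, 1.47% and 13.6% of all windows. A second NF-kB form (GGG, any 2 bases, TTTCC) was in 1 window of Mtss1l (1.63% of all windows) and the STAT motif TTCNNNGAA in that of Papolb (8.3%). The hypoxia response letters ACGTG were in windows of Aqp2, Mtss1l and Ttc16 (19.6% of all windows), and also in that of Aqp5, the neighbour of Aqp2. These matches describe the letters in the window and say nothing of what binds there.

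Lcn2 (ENSMUSG00000026822.15, chromosome 2, 32274645 to 32278264, minus strand) encodes lipocalin 2, a secreted protein that binds bacterial iron carriers and so withholds iron from bacteria. It was at 10.6, 45.8 and 23.1 CPM in the uninjured libraries, 377 and 422 CPM in the day 3 libraries, and 28.8, 98.9 and 62.7 CPM at day 7. Both day 3 libraries stood far above the other 6, and the uninjured and day 7 libraries overlapped. The means were 26.5 ± 17.8 CPM (SD, n = 3) uninjured, 399 ± 32.4 CPM (SD, n = 2) at day 3 and 63.5 ± 35.0 CPM (SD, n = 3) at day 7, so the day 3 mean was 15.1 times the uninjured mean and 6.29 times the day 7 mean. Its lower day 3 value was 3.81 times the highest of the other libraries, the largest such ratio of the 7, and 4.79 times after scaling with edgeR's trimmed mean of M values (TMM). Lcn2 was also the only 1 of the 7 that was lower in day 3 replicate 1 than in replicate 2.

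Saa1 (ENSMUSG00000074115.6, chromosome 7, 46389921 to 46392404, minus strand) encodes serum amyloid A1, an apolipoprotein of the acute phase that circulates on high-density lipoprotein. Its values were 12.02, 62.6 and 2.41 CPM in uninjured skin, 275 and 128 CPM at day 3, and 21.1, 56.2 and 30.2 CPM at day 7. Both day 3 libraries were again the highest of the 8. The uninjured libraries were far apart, replicate 2 standing above all 3 day 7 libraries and replicates 1 and 3 below them. The day 3 mean of 202 ± 104 CPM (SD, n = 2) was 7.84 times the uninjured mean of 25.7 ± 32.4 CPM (SD, n = 3) and 5.62 times the day 7 mean of 35.8 ± 18.2 CPM (SD, n = 3). Saa1 met the rule narrowly, at a ratio of 2.04, and missed it on TMM-scaled values, at 1.93.

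Of the other serum amyloid A genes, Saa2 had a course like that of Saa1, while Saa3 stayed high at day 7. The day 3 mean of Saa2 was 6.66 times its uninjured mean and 6.83 times its day 7 mean. Saa2, which begins 8810 bases away and points the other way, was at 7.86, 42.0 and 1.14 CPM uninjured, 181 and 45.0 CPM at day 3, and 10.5, 26.2 and 13.02 CPM at day 7. Both of its day 3 libraries were above the other 6, but uninjured replicate 2 came close to day 3 replicate 2, and the ratio of 1.07 left it outside the rule. Of the stretches of 50 bases in Saa1 transcripts, 31.1% also occur in Saa2, and the sources used here do not say how reads matching several genes were counted, so the split between Saa1 and Saa2 is uncertain.

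Saa3, the serum amyloid A made by adipocytes and macrophages, was at 41.7, 203 and 6.85 CPM uninjured, 1661 and 1257 CPM at day 3, and 638, 1867 and 874 CPM at day 7. Its day 3 and day 7 libraries overlapped, with 2 of the 3 day 7 libraries below both day 3 ones and means of 1126 and 1459 CPM at day 7 and day 3. Saa3 rose from uninjured to day 7 by 3.47 ± 0.92 on the log2 scale (edgeR, SE, adjusted p = 0.0440). Saa3 missed the threshold when uninjured replicate 1, uninjured replicate 3, day 7 replicate 1 or day 7 replicate 2 was left out, where the difference was 2.93 to 3.80 and the adjusted p 0.0622 to 0.153. Per kilobase of exon, the day 3 means of the family were 560 RPKM (CPM per kilobase) for Saa3, 81.3 for Saa1 and 44.9 for Saa2. Saa4 and the pseudogene Saa-ps stayed under 2 CPM in every library.

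Within the summed counts of Saa1, Saa2 and Saa3, which do not depend on scaling between libraries, the share of Saa1 was 19.5%, 20.4% and 23.2% uninjured, 12.99% and 8.95% at day 3, and 3.16%, 2.88% and 3.29% at day 7. The 3 groups did not overlap in this share. It was 21.01 ± 1.92% (SD, n = 3) uninjured and 3.11 ± 0.21% (SD, n = 3) at day 7, with a two-sided exact permutation p of 0.1, the smallest that 3 against 3 libraries can give (0.3 adjusted over 3 such ratios). This share was chosen after the data were seen, and 2 other ratios were tested in the same way. The rule capped Saa1 and Aqp2 in the uninjured and day 7 libraries, but not Saa2, Saa3 or Aqp5. A low share of Saa1 at day 7 is thus partly fixed by the choice, and these p-values are given as a description. The ratio of Saa1 to Saa2 had an exact permutation p of 0.2, and Aqp2 as a percentage of Aqp5 had 0.7 (adjusted, 0.3 and 0.7).

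Aqp2 (ENSMUSG00000023013.6, chromosome 15, 99476936 to 99482428, plus strand) encodes aquaporin 2, the water channel of the kidney collecting duct that vasopressin controls. It was at 0.23, 2.20 and 4.06 CPM uninjured, 53.3 and 13.98 CPM at day 3, and 3.70, 6.03 and 6.00 CPM at day 7. Both day 3 libraries were above the rest and nearly 4-fold apart (a ratio of 3.81), and the uninjured and day 7 libraries overlapped. The lowest uninjured value rests on 2 counts. The day 3 mean was 33.6 ± 27.8 CPM (SD, n = 2), which is 15.6 times the uninjured mean and 6.42 times the day 7 mean.

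Aqp5, the water channel of sweat, salivary and other glands, lies 6235 bases downstream of Aqp2 on the same strand. It was at 2.66, 7.89 and 47.6 CPM uninjured, 335 and 125 CPM at day 3, and 28.4, 106 and 59.9 CPM at day 7. Its day 3 libraries were also the highest 2 of the 8, but day 7 replicate 2 came near the lower one, and its ratio of 1.17 left it outside the rule. Per kilobase, its day 3 mean was 88.5 RPKM against 23.7 RPKM for Aqp2. Counts of Aqp2 were 8.70%, 27.9% and 8.53% of those of Aqp5 uninjured, 15.9% and 11.2% at day 3, and 13.02%, 5.68% and 10.02% at day 7, with overlap of all 3 groups. Aqp6, next along, stayed under 1 CPM in every library.

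Mtss1l (ENSMUSG00000033763.15, chromosome 8, 111448108 to 111468032, plus strand) encodes a relative of the metastasis suppressor MTSS1, a protein with an I-BAR domain that bends membranes and binds actin. Its values were 6.12, 9.63 and 6.09 CPM uninjured, 44.1 and 30.0 CPM at day 3, and 12.7, 14.5 and 8.49 CPM at day 7. The day 3 libraries lay close together and clear of the others, and 2 of the 3 day 7 libraries were above every uninjured one. The day 3 mean of 37.1 ± 9.92 CPM (SD, n = 2) was 5.09 times the uninjured mean and 3.11 times the day 7 mean, the smallest such folds of the 7. Its neighbours Vac14, 1078 bases away, and Il34, 429 bases away, had no such course. Vac14 was at 63.1 and 70.3 CPM at day 3 against 29.7 to 72.8 CPM elsewhere, and Il34 at 5.27 and 12.6 CPM against 6.59 to 12.05 CPM.

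Papolb (ENSMUSG00000074817.3, chromosome 5, 142511593 to 142515831, minus strand) encodes a poly(A) polymerase known from testis, and in the deposited table it has no intron. It was at 2.66, 2.59 and 0.76 CPM uninjured, 19.4 and 9.08 CPM at day 3, and 2.22, 1.08 and 2.60 CPM at day 7. The 6 uninjured and day 7 libraries stood together and both day 3 libraries above them, with a ratio of 3.41 that was second to Lcn2. The day 3 mean was 14.2 ± 7.30 CPM (SD, n = 2), 7.11 times the uninjured mean and 7.24 times the day 7 mean. The gene sits inside Radil on the same strand, with 0 shared exonic bases, and Radil was at 2.26 and 3.76 CPM at day 3 against 3.04 to 10.1 CPM in the other libraries. Of its 50-base stretches, 0.38% also occur in Papola, the ubiquitous poly(A) polymerase.

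Fam78b (ENSMUSG00000060568.15, chromosome 1, 166828986 to 166918871, plus strand) was at 4.39, 6.08 and 8.88 CPM uninjured, 65.9 and 21.4 CPM at day 3, and 6.51, 8.07 and 4.19 CPM at day 7. Both day 3 libraries were above the others and the uninjured and day 7 ranges nearly coincided. The day 3 mean of 43.7 ± 31.5 CPM (SD, n = 2) was 6.77 times the uninjured mean and 6.98 times the day 7 mean. Day 3 replicate 1 was 3.08 times replicate 2.

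Ttc16 (ENSMUSG00000039021.16, chromosome 2, 32647038 to 32665645, minus strand), a gene for a protein with tetratricopeptide repeats, was at 0.35, 0.39 and 2.66 CPM uninjured, 27.7 and 5.42 CPM at day 3, and 0.74, 0.43 and 0.23 CPM at day 7. Uninjured replicate 3 stood above the other uninjured libraries and set its ratio of 2.04. The day 3 libraries were 5.10-fold apart, the widest gap of the 7, and the lower one was just above the level of 5 CPM that the rule asks. The day 3 mean of 16.6 ± 15.7 CPM (SD, n = 2) was 35.6 times the day 7 mean and 14.6 times the uninjured mean. Its exons share 403 of 6388 bases (6.31%) with Tor2a on the opposite strand. Whether the counting used strand is not given in the sources used here, and reads there cannot be told apart. Tor2a itself was at 31.1 and 36.3 CPM at day 3 against 26.2 to 49.7 CPM in the other libraries. The part of the shared bases in the Ttc16 counts was not tested.

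**Figure D1:**
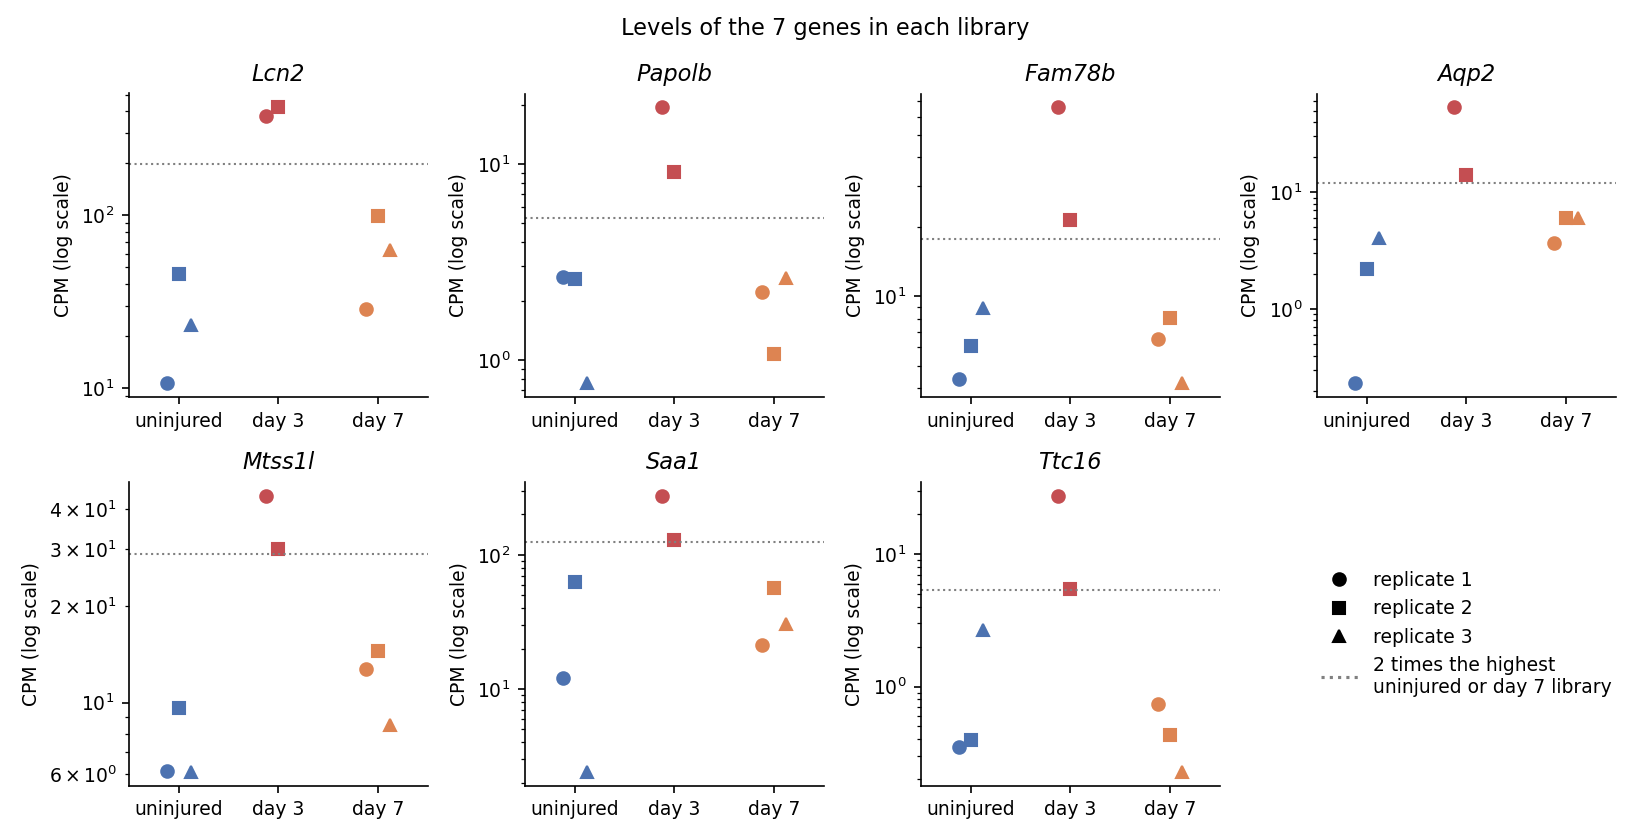
CPM of each of the 7 genes in the 8 libraries, on a log scale, with 1 panel per gene, points for libraries, columns for uninjured, day 3 and day 7, and a dotted line at 2 times the highest uninjured or day 7 library. In every panel both day 3 points lie above that line, as the rule requires, and the uninjured and day 7 points overlap.

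Per kilobase of exon, the 7 genes spanned a wide range of day 3 levels: 152 RPKM for Lcn2, 81.3 for Saa1, 23.7 for Aqp2, 6.98 for Mtss1l, 6.90 for Fam78b, 3.36 for Papolb and 2.59 for Ttc16. The 2 secreted acute phase proteins headed this order. From Mtss1l down, the day 3 libraries of each gene overlapped with those of the next. Both Mtss1l libraries were above both of Papolb and of Ttc16. Between the 2 libraries, only Mtss1l and Fam78b changed places in the order of these 4. Neither Lcn2 nor Aqp2 nor Mtss1l shared any 50-base stretch with transcripts of another gene.

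The rule is strict on the day 7 side. Of 9344 protein-coding genes at 5 CPM or more in both day 3 libraries, 129 were at least 2 times every uninjured library and 35 at least 2 times every day 7 library, and only the 7 were both. Of the 129, 101 had a higher mean at day 7 than at day 3. These counts use raw CPM, on which the median gene was 0.30 (log2) lower at day 3 than at day 7. After TMM scaling it was 0.07 lower. The same rule turned to day 7 gave 72 genes, and turned to uninjured skin it gave 10. Since the groups hold 2 or 3 libraries, these counts are not on an equal footing.

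**Figure D2:**
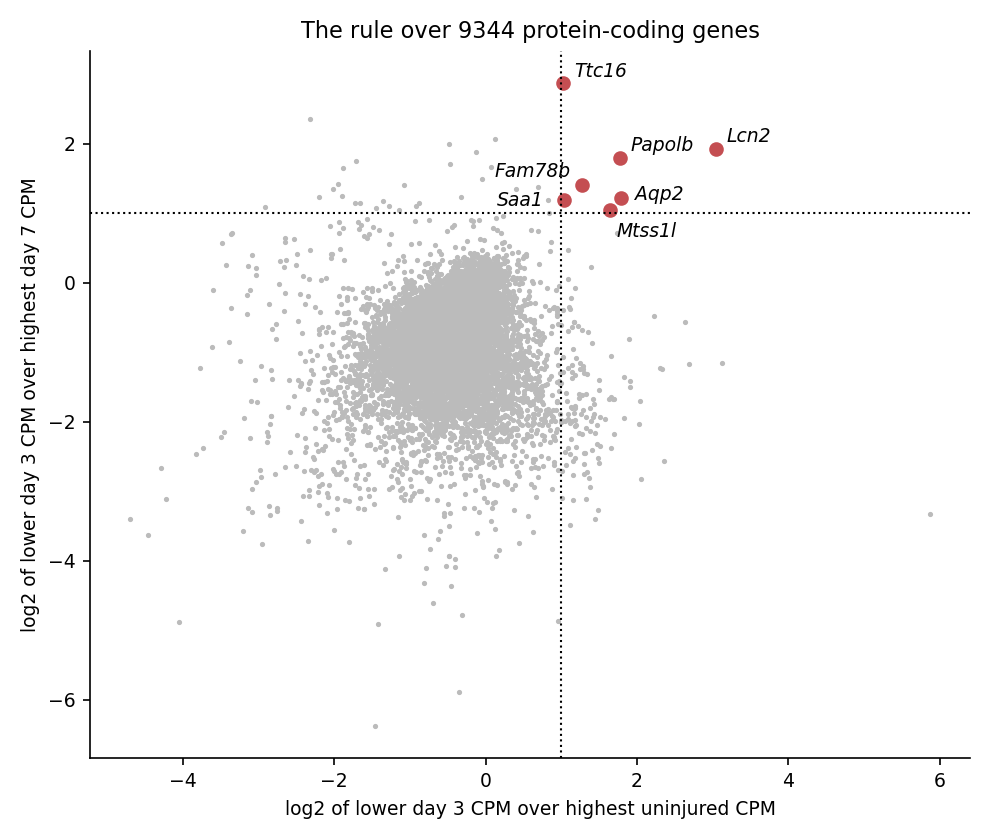
Each point is 1 of 9344 protein-coding genes; the horizontal axis is the log2 ratio of the lower day 3 CPM to the highest uninjured CPM, the vertical axis the same against the highest day 7 CPM, and dotted lines mark a ratio of 2. The 7 genes (red) lie in the upper right corner, while 122 genes lie to the right of the vertical line but below the horizontal one.

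Just inside the ratio threshold were Aqp2 (2.32), Mtss1l (2.07), Saa1 (2.04) and Ttc16 (2.04). Just outside it were Lgals9 (1.79), Ampd3 (1.77), Inmt (1.65) and Pnp2 (1.62). Lgals9, which encodes galectin 9, was at 46.6, 53.3 and 59.1 CPM uninjured, 106 and 112 CPM at day 3 and 34.9, 52.8 and 40.5 CPM at day 7. Its 2 day 3 libraries lay closer together than those of any of the 7 genes. Ampd3, an AMP deaminase, was at 25.2 and 23.0 CPM at day 3 against 5.43 to 12.96 CPM in the others, and Pnp2, a purine nucleoside phosphorylase, at 38.0 and 42.9 CPM against 10.5 to 23.5 CPM. Klk1, tissue kallikrein, missed on level alone, with 5.84 and 2.504 CPM at day 3 and at most 0.23 CPM elsewhere. The lincRNA 9130204K15Rik (27.7 and 7.20 CPM at day 3, at most 0.79 CPM elsewhere) missed as not protein-coding, and so did Gm37483 (17.3 and 19.2 CPM against 1.90 to 6.89 CPM).

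Beside Lcn2, 1110008P14Rik, 2695 bases away on the same strand, was at 137, 213 and 164 CPM uninjured, 397 and 343 CPM at day 3, and 180, 197 and 205 CPM at day 7. Both of its day 3 libraries were above the other 6, at a ratio of 1.61. Ptges2, a prostaglandin E synthase on the other side of Lcn2, was at 97.8 and 90.6 CPM at day 3 against 50.04 to 81.7 CPM in the other libraries. Ciz1, which lies beyond 1110008P14Rik, was at 13.8 and 17.7 CPM at day 3, within its range elsewhere of 13.6 to 31.3 CPM.

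**Figure D3:**
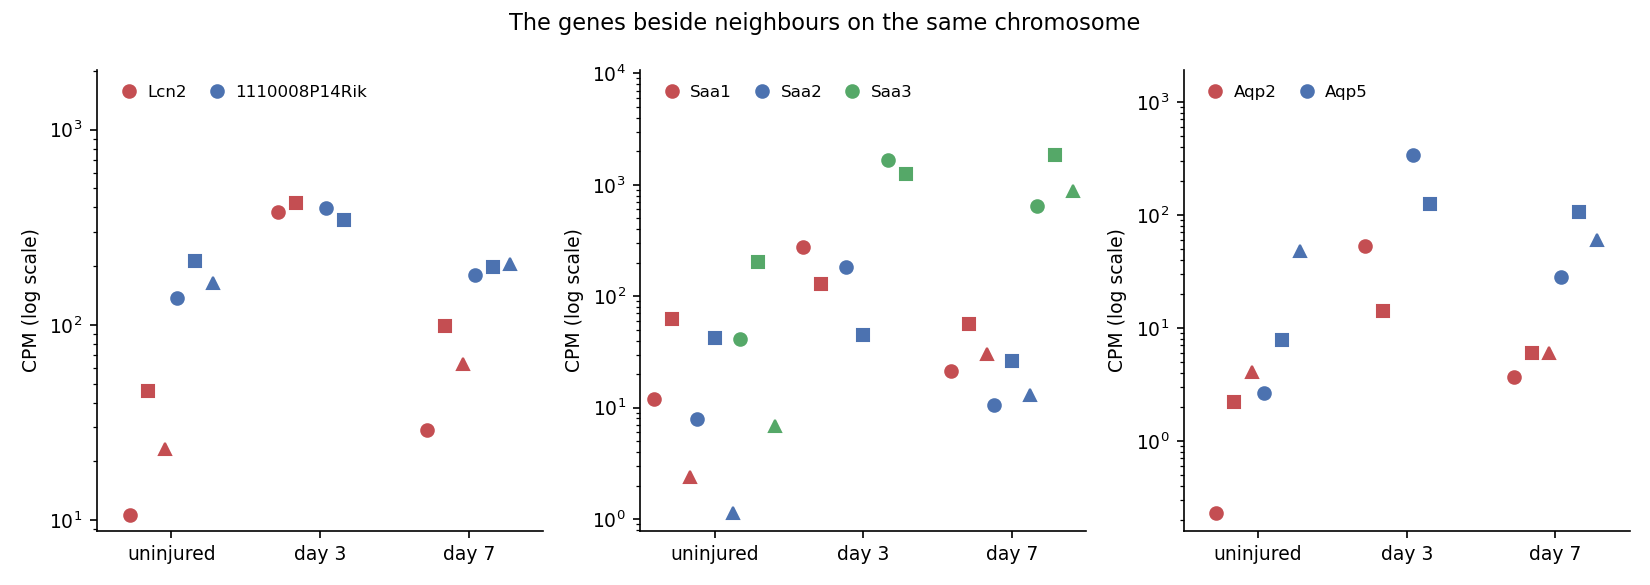
CPM on a log scale of Lcn2 with 1110008P14Rik, Saa1 with Saa2 and Saa3, and Aqp2 with Aqp5, in columns for uninjured, day 3 and day 7; each point is 1 library, with circles, squares and triangles for replicates 1, 2 and 3. Saa3 was still at 638 to 1867 CPM at day 7, while the day 3 points of each of the other genes are its highest.

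The 2 day 3 libraries did not give these genes the same weight. Over the 9344 genes, the ratio of replicate 1 to replicate 2 had a median of 0.925, with 5% of genes under 0.44 and 5% over 1.62. It was above 1 for 3735 of them and above 2 for 1.9%. Of the 7 genes, 6 were higher in replicate 1, and 5 of these by more than 2-fold: Ttc16 (5.10), Aqp2 (3.81), Fam78b (3.08), Saa1 (2.15) and Papolb (2.14). Mtss1l was at 1.47 and Lcn2 at 0.89. Replicate 1 is the library with the luminal epithelial markers; their part in these values was not tested. Judged by replicate 1 alone, the rule gave 49 genes, and by replicate 2 alone 43, with all 7 genes in each set. The choice requires both libraries, so this overlap follows from it.

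**Figure D4:**
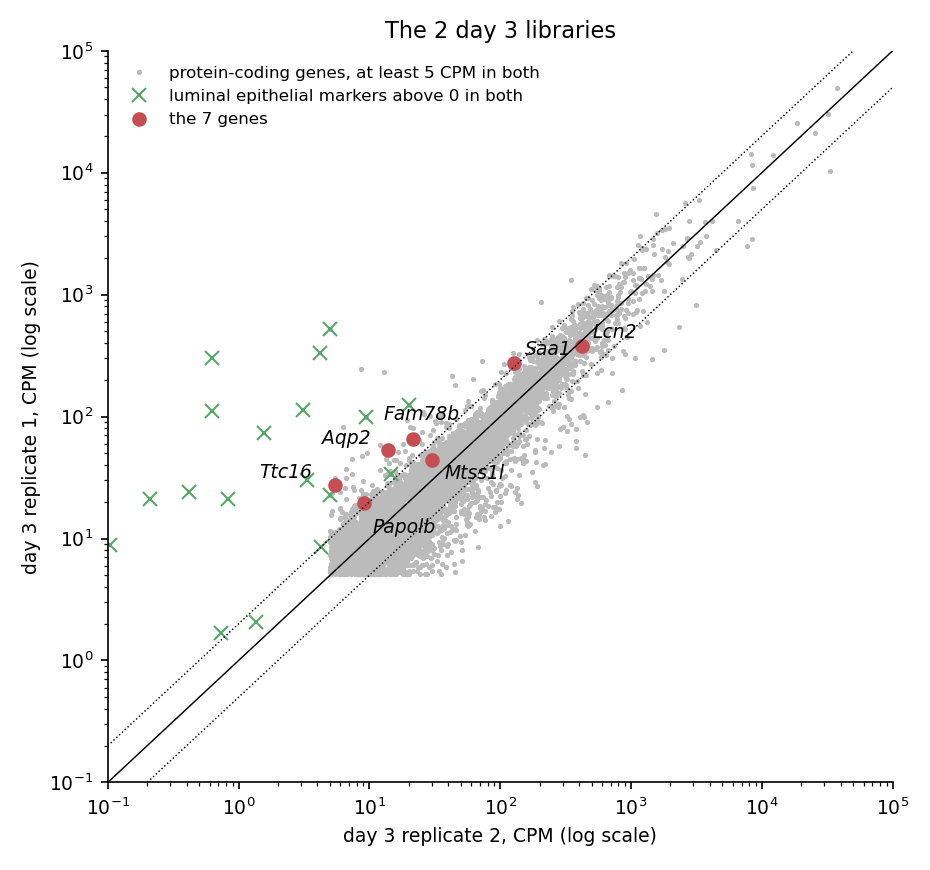
CPM in day 3 replicate 1 (vertical) against replicate 2 (horizontal), both on log scales; grey points are 9344 protein-coding genes, green crosses luminal epithelial markers, red points the 7 genes, the solid line equality and the dotted lines a 2-fold difference. Of the red points, 6 lie above the line of equality and Lcn2 just below it.

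Day 7 against uninjured skin asks whether these genes had come back to the level of unwounded skin by day 7, and the rule does not set which of these groups is the higher. It does cap both, since no uninjured or day 7 library could stand above the lower day 3 CPM divided by 2. A gene still above its uninjured level at day 7 could meet the rule, but only under that cap. The count of calls is thus partly fixed by the choice and is given as a description. None of the 7 passed (0 higher and 0 lower at an edgeR adjusted p of 0.05), where 7.67% of 18656 genes tested did, 5.90% higher and 1.77% lower, and nothing is read from that difference. At an unadjusted p under 0.05 the count was also 0, against 4987 of all genes, and DESeq2 called 0. Missing the threshold does not show that the levels were equal. Ttc16 is counted here although it entered the fit only through its day 3 libraries. The intervals of 2 SE below describe the precision of the fit and do not bound the difference.

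The fitted log2 difference of day 7 minus uninjured was 0.99 ± 0.53 (SE) for Lcn2 (edgeR adjusted p = 0.250), an interval of 2 SE from -0.06 to 2.04. Without the filter on low counts Lcn2 passed at 0.96 (adjusted p = 0.0130), and over the other alternatives its adjusted p ran from 0.0967 to 0.591. Mean levels were 2.40 times as high at day 7 as uninjured, with 2 of 3 day 7 libraries above all 3 uninjured ones. For Saa1 the difference was 0.19 ± 0.81 (interval -1.43 to 1.81), and it moved to 2.05 without uninjured replicate 2. It turned to -0.16 without uninjured replicate 1, -0.33 without uninjured replicate 3 and -0.22 without day 7 replicate 2.

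Aqp2 differed by 1.01 ± 0.74 (interval -0.47 to 2.48; 0.47 without uninjured replicate 1 and 1.73 without uninjured replicate 3) and Mtss1l by 0.38 ± 0.30 (interval -0.22 to 0.98). Papolb differed by -0.31 ± 0.58 (interval -1.47 to 0.85; 0.03 without day 7 replicate 2) and Fam78b by -0.37 ± 0.45 (interval -1.27 to 0.53). Ttc16, with 31 counts over the uninjured and 11 over the day 7 libraries, entered the fit only through day 3 and could not be tested on the uninjured and day 7 libraries alone. Its fitted difference is therefore a description, -1.56 ± 0.98 (interval -3.52 to 0.41), which shrank to -0.03 without uninjured replicate 3, the library that holds most of its uninjured counts. The edgeR adjusted p-values of Aqp2, Mtss1l, Papolb and Fam78b were between 0.395 and 0.756, and that of Saa1 was 0.896. Mtss1l had the narrowest interval and Ttc16, the lowest in counts at day 7, the widest. The median difference of the 7, Ttc16 included, was 0.19 and that of all genes tested 0.04. From the uninjured and day 7 libraries alone, where Ttc16 missed the filter, the median of the others was 0.32. The median of the 7 turned to -0.12 without uninjured replicate 1 and -0.03 without uninjured replicate 3. The latter is the fitted value of Ttc16 itself. Since Ttc16 is included, both changes of sign are given as a description.

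Scaling bears on how the days compare. On raw CPM, which the rule uses, the median of all genes tested was 0.31 (log2) higher at day 7 than uninjured and 0.30 lower at day 3 than at day 7. After TMM scaling these shifts were 0.04 and -0.07. Applied to TMM-scaled CPM, the rule gave 6 genes: Ttc16 and Saa1 were lost and Inmt was gained.

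Of the 26 genes on the acute phase and metal-binding list, 3 had both day 3 libraries above the other 6 (Lcn2, Saa1 and Saa2), and 2.09% of 19720 protein-coding genes with a count did. Lcn2 and Saa1 were chosen for this, so nothing is read from that count. Between uninjured and day 7, 4 of its 22 tested genes rose and 1 fell, with a median of -0.14, where 5.90% of all genes tested rose and 1.77% fell. Fgg, a fibrinogen chain, rose by 7.997 ± 1.29 (log2, edgeR adjusted p = 0.0104), Itih4 by 5.30 (adjusted p = 0.0195), the haem carrier Hpx by 4.08 (adjusted p = 0.0168), and Saa3 as above. Fgg had 0 counts in all uninjured libraries, so its fitted fold depends on the prior count. Mt1, a metallothionein that binds zinc and copper, fell by 2.26 (adjusted p = 0.0141). With 1 library left out, 1 to 4 of the list were higher and 0 to 2 lower: 1 was higher without uninjured replicate 1 or 3 and 2 without day 7 replicate 2. Fgg alone passed in each of these fits, with adjusted p-values up to 0.0431. DESeq2 called 4 higher and 3 lower. Haptoglobin (Hp), which binds free haemoglobin, was at 10232 and 32951 CPM at day 3, below and above its uninjured range of 17233 to 25970 CPM.

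**Figure D5:**
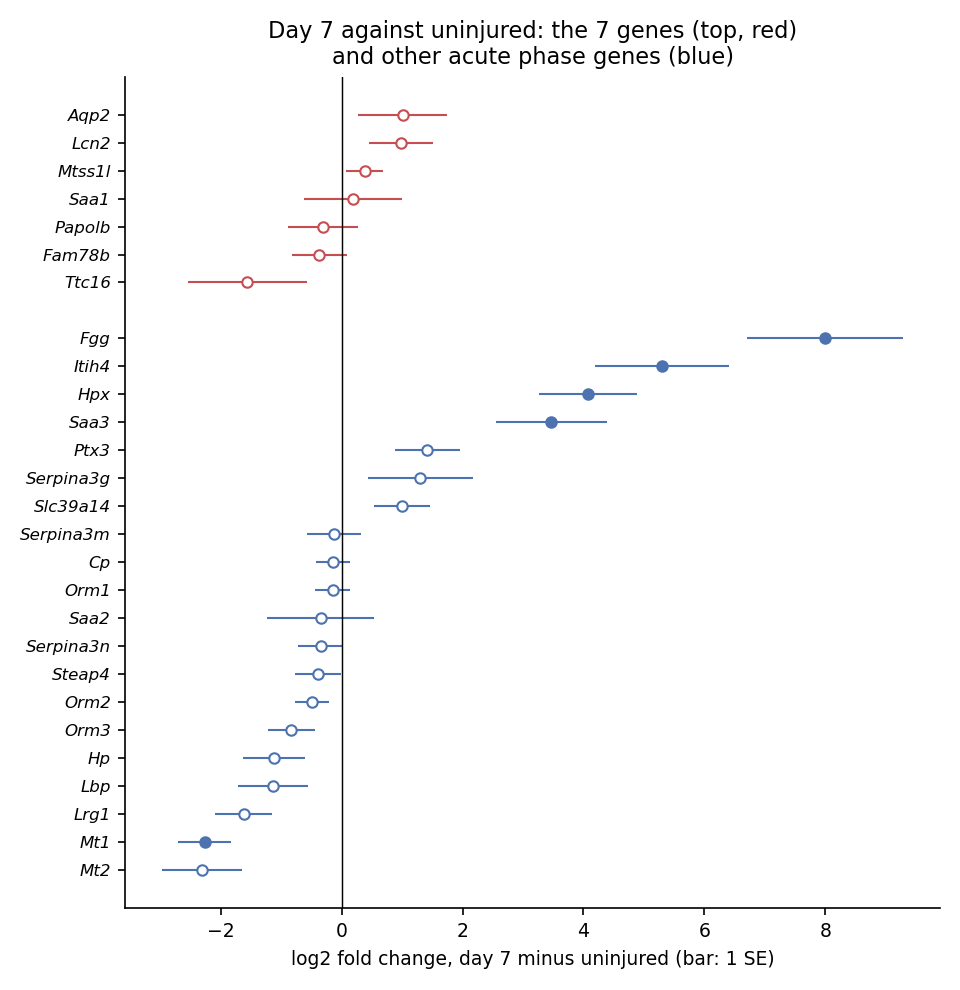
Fitted log2 fold change of day 7 minus uninjured (horizontal) for the 7 genes (red, top) and the other tested acute phase and metal-binding genes (blue), with bars of 1 SE from edgeR; filled points passed the test and open ones did not. All 7 red points are open, from 1.01 for Aqp2 to -1.56 for Ttc16, and 5 blue points are filled, from 7.997 for Fgg to -2.26 for Mt1. The Ttc16 point is a description, since this gene entered the fit only through day 3.

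Of the list of signalling genes of the IL-1, TNF and IL-6 families, 4 of 31 tested rose at day 7 (Tnf, Il1rl1, Il33 and Tnfaip6) and 0 fell, while DESeq2 called 6 higher and 1 lower. In edgeR, 5.90% of all genes tested rose and 1.77% fell. The edgeR count was 0 without uninjured replicate 3, day 7 replicate 1 or day 7 replicate 2, and 1 and 2 without uninjured replicates 1 and 2. Tnf missed the filter on low counts without day 7 replicate 2, and also in the uninjured and day 7 libraries alone. It was therefore not tested in those fits. None of the 7 genes is on this list. Il6 was at 1.51 and 0.63 CPM at day 3 and under 0.6 CPM elsewhere, and Il1b at 0 and 4.90 CPM at day 3. Nfkbiz, a co-factor of NF-kB, was at 3.77 and 14.3 CPM at day 3 and at 30.9, 16.7 and 5.89 CPM at day 7. Cebpb, a C/EBP factor of the acute phase, was at 367 and 378 CPM at day 3 against 269 to 344 CPM in the others. Both day 3 libraries were the highest, as for 2.09% of 19720 protein-coding genes with a count. Cebpb was named after its values were seen, and its part in the levels of the 7 genes was not tested. Cebpd, its relative, was at 27.7 and 101 CPM at day 3 against 18.5 to 50.1 CPM, so that only replicate 2 stood out.

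Lcn2 is also a neutrophil granule protein, and neutrophils enter wounds early. The summed level of 25 neutrophil markers was 5598 and 7892 CPM at day 3, 2880 to 6766 CPM uninjured and 4726 to 5125 CPM at day 7. Of these 25 markers, 16 had counts in both day 3 libraries, 6 had both above all uninjured libraries and 0 had both above all of the other 6. Ltf, which is also on the luminal epithelial list, was 1 of these 6. It was at 112 and 0.63 CPM at day 3, at most 0.17 CPM uninjured and 9.85 to 32.4 CPM at day 7. Among low-level markers, Ngp was at 0.75 and 0 CPM, Ly6g at 0 and 0.21 CPM and Camp at 3.96 and 3.34 CPM. Trem1 and Trem3 were at 0 in both day 3 libraries. These examples were chosen after their values were seen and do not stand for the 25, of which 6 rose over uninjured in both day 3 libraries. The sums were carried by Wfdc21 and G0s2, which other cells also make. Between uninjured and day 7, 4 of 20 tested neutrophil markers rose and 0 fell, where 5.90% of all genes tested rose. S100a9 was 1 of the 4, at 3.70 (log2, edgeR adjusted p = 0.00456), while S100a8 was at -0.85 (edgeR adjusted p = 0.2085). Macrophage and monocyte markers (25 genes) summed to 320 and 1263 CPM at day 3, 148 to 354 CPM uninjured and 630 to 1669 CPM at day 7. All 25 had counts in at least 1 day 3 library, 10 had both day 3 libraries above all uninjured ones and 0 had both above all of the other 6. The part of either cell type in the day 3 level of the 7 genes was not tested.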

How the data were processed

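The authors deposited raw gene counts, which come from featureCounts 2.0.8 according to the table's header. The submitters' processing notes also name STAR 2.7.10b, DESeq2 and mm10. The sources used here give neither the strand setting nor the handling of multi-mapping reads. Of 53700 gene identifiers, 52147 were found in GENCODE M21, which gave symbols and gene types; 1543 of these had the same start there and 0 of the 7 genes did, so gene coordinates were copied from the deposited table without a settled build. Promoter coordinates are RefSeq's (GRCm38.p6).

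CPM were computed from raw column totals, with replicates as separate libraries. Day 7 against uninjured was tested with edgeR 4.0.16 (R 4.3.3): TMM, filterByExpr at a minimum count of 10, quasi-likelihood F test, all 8 libraries with 5 residual degrees of freedom, two-sided, Benjamini-Hochberg at 0.05; an SE is the fold change divided by the root of its F statistic. The code was tested on simulated data. Alternatives were other scalings, no filter, DESeq2 1.42.0, a replicate block, fewer groups and leaving out each library. The 7 genes and the 35 gene lists were chosen with earlier results of these data known. All genes meeting the rule may be named, with the 4 nearest outside its threshold, and neighbours within 20 kb; other genes were named after their values were seen. The shallowest library, at 5308959 counts, has the least precision.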

Additional observations from a re-analysis of the deposited data

How the results depend on the processing

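None of the 7 genes passed day 7 against uninjured under the alternatives run, with 1 exception: without the filter on low counts 1 gene was higher (Lcn2, log2 difference 0.958, edgeR adjusted p = 0.0130). Over all genes, 1101 were higher and 330 lower. Without the filter these counts were 2362 and 794, and with DESeq2 1857 and 644. Leaving out 1 library gave 238 to 2616 higher and 76 to 1439 lower. Higher and lower counts were 238 and 76 without uninjured replicate 1, 606 and 203 without uninjured replicate 2, 312 and 156 without uninjured replicate 3, 314 and 79 without day 7 replicate 1, 293 and 93 without day 7 replicate 2, and 2616 and 1439 without day 7 replicate 3. Where a day 3 library was left out, the lone one was assumed to vary like the other groups.

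The median difference of the 7 genes was 0.191 and ran from -0.116 (without uninjured replicate 1) to 0.642 (without uninjured replicate 2), with -0.0324 without uninjured replicate 3. The last of these is the fitted value of Ttc16 itself. These medians include Ttc16, which entered the main fit only through day 3, and are given as a description. A replicate block gave 1563 higher and 568 lower genes, 0 of the 7 in either direction and a median of 0.388. The replicate numbers share no stated animal or day. Deviations of same-numbered uninjured and day 7 libraries correlated at -0.057, 0.0609 and 0.203, and not every library correlated best with its own number. Ttc16 has no value from the uninjured and day 7 libraries alone, where it missed the filter.

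The number of genes that met the rule was 14 at a ratio of 1.5, 2 at a ratio of 3 (Lcn2 and Papolb), 8 at 2 CPM, 5 at 10 CPM and 9 with all gene types. It was 7 to 9 without any 1 uninjured or day 7 library, with Lyve1, D630039A03Rik, Mmd2, Inmt, Prrt1 or Aqp5 gained, and 43 or 49 with 1 day 3 library. Low counts limit Aqp2, Papolb and Ttc16 outside day 3.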

Other observations

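Genes that met the same rule in a single day 3 library have no replicate check and are given as values, with examples chosen after these were seen. Day 3 replicate 1 alone gave 49 genes, among them several small subunits of the mitochondrial respiratory chain and ATP synthase. Cox5b was at 854 CPM there, 427 CPM in replicate 2 and 344 to 403 CPM in the other libraries. Cox6b1, Cox7b, Ndufb8, Uqcr10, Uqcrq and Atp5k were likewise 2.01 to 2.28 times the highest uninjured or day 7 library in replicate 1, and 0.867 to 1.08 times in replicate 2. Cox8b, a subunit of muscle and brown fat, was at 876 CPM in replicate 1 and 207 CPM in replicate 2, and Ucp1, the uncoupling protein of brown fat, at 5.09 and 0 CPM. Ltf (lactoferrin) was at 112 and 0.63 CPM and Krt4, an epithelial keratin, at 33.9 and 2.19 CPM.

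Day 3 replicate 2 alone gave 43 genes, of which 7 (the genes described above) are also among the 49. The others include lectin receptors known from tissue macrophages and dendritic cells. Cd209f was at 77.0 CPM there, 14.3 CPM in replicate 1 and 5.07 to 28.6 CPM in the other libraries. Cd209b, Cd209c, Cd209d, Mgl2 and Siglec1 were 2.15 to 5.17 times the highest uninjured or day 7 library in replicate 2 and 0.0940 to 0.543 times in replicate 1. The vasodilator peptide gene Adm was at 32.8 and 2.26 CPM in replicates 2 and 1, and Nnat at 3128 and 828 CPM.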
